A study of Mus musculus with 2 samples.

Results

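Ghrl, Mboat4, Sst and Hhex are 4 of the 31055 genes measured in single cells of mouse small-intestinal crypts. They were chosen as the hormone and partner genes of ghrelin and somatostatin cells. The cells that carry the hormones were found by count: at least 50 unique transcript counts (UMIs) of Ghrl or of Sst in a cell. Of the 2335 cells kept by the authors, 25 were Ghrl-high and 6 were Sst-high by this rule, and 1 cell was both. The other 442 cells of the enteroendocrine-like class are the cells they are set against. The enteroendocrine-like class holds 471 cells in all and was named from marker genes such as Chga, Neurod1 and Scgn. A cluster of 92 of these cells was led by peptide hormone genes and is called the peptide hormone cluster. It held 21 of the Ghrl-high and 5 of the Sst-high cells, and the remaining Sst-high cell lay in a cycling cluster. The marker list that named this cluster includes Ghrl, Sst and Mboat4, and Ghrl and Sst are among its leading genes. Its share of these cells is therefore partly set by the genes that chose them and is only a description.

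The mouse carried a tamoxifen-inducible Cre recombinase (CreER) and tdTomato at the chromogranin A locus Chga, together with a Rosa26 LSL-eYFP reporter that Cre switches on. All groups below share this genotype and 5 daily injections of 1 mg tamoxifen. Cells sorted for eYFP and bulk epithelial cells were stained with 4 hashtag antibodies and measured together in 1 gene expression library, with 1 hashtag library on the same cells. The labels do not tie tags to sorts, so tags are called by number. There is no replicate, so no comparison below has a p-value. Intervals are exact 95% intervals and cover counting error only. Cre is driven by Chga, so the eYFP label depends on expression of that gene.

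Ghrelin is a peptide hormone best known from the X/A-like cells of the stomach, and it is also made by scattered enteroendocrine cells of the small intestine. Only the acylated form activates the ghrelin receptor Ghsr, and Mboat4, also called GOAT, is the enzyme that attaches the fatty acid. Somatostatin, the product of Sst, is the inhibitory peptide of D cells (delta cells) and acts through the Sstr receptors. Hhex is a homeodomain transcription factor that maintains Sst expression in pancreatic delta cells of mice.

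The library has features that touch every value. Lymphocyte-like cells were among the kept cells: 42 were T cell-like, and another cluster of 92 was B or plasma cell-like. Leading genes of the B or plasma cell-like cluster also include Lyz2 and Il1b, which are not on its marker list. The kept cells held 1002 to 129719 UMIs, with a median of 19078. The labels name 1 mouse, yet 2 patterns of sex-linked transcripts occurred: Xist (3 UMIs or more) without any Y-linked UMI, and Y-linked UMIs with Xist at 2 UMIs or fewer. Among Ghrl-high cells 14 showed the first pattern, 4 the second and 4 had Xist at 3 or more together with a Y-linked UMI. Among Sst-high cells these numbers were 3, 2 and 0. Among other enteroendocrine-like cells they were 231, 106 and 55. Scrublet called only 2 of 2335 cells doublets, so no cell was removed. The top 6% of doublet scores were left out as an alternative, and 3 of the 25 Ghrl-high cells and 4 of the 6 Sst-high cells are among these. The matrix also holds 8913 barcodes that the authors left out. Of these, 937 lay within the limits of the kept cells (at least 1002 UMIs, at least 566 genes and at most 12.5% mitochondrial UMIs).

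The stretches of 250 bases before the transcription start of the hormone and factor genes are shown because Sst carries the cAMP response element (CRE) through which its transcription is known to respond to cAMP. The sequences and coordinates come from RefSeq on GRCm38.p6, and capitals mark a CRE (TGACGTCA) or a CCAAT motif on either strand, in Hhex as its reverse complement. Sst lies on chr16:23890845-23891094 on the minus strand, Ghrl on chr6:113719912-113720161 on the minus strand, and Hhex on chr19:37434591-37434840 on the plus strand. The Ghrl window stands before the most upstream of the start sites the table lists for Ghrl.
Sst: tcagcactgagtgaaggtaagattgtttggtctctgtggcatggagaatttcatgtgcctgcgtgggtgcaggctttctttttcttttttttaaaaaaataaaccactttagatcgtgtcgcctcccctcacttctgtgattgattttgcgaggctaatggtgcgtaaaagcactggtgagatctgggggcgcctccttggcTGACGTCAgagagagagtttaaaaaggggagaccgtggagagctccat
Ghrl: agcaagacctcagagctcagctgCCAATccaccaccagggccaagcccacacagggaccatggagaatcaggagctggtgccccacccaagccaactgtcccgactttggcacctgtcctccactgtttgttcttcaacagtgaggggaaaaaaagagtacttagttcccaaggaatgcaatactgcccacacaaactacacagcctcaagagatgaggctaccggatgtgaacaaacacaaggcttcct
Hhex: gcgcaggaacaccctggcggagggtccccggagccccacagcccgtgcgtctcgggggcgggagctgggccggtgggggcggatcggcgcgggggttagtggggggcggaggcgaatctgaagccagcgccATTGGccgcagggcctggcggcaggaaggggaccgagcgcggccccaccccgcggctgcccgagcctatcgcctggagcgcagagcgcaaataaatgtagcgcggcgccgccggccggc
The CRE of Sst begins 48 bases before the start. CRE letters stand in 1.55% of 32851 promoter windows of this length and in none of the other windows printed here. The CCAAT of Ghrl begins 227 bases before the start and that of Hhex 119 bases before it. The windows before the other start sites listed for Ghrl, not printed, hold no CCAAT on either strand. Among all windows, CCAAT on either strand occurs in 33.8%. TAAT stands 95 bases before the start of Sst and in 54.9% of windows, and TATAA, searched as well, in 22.8% of windows and in none of the 3 printed. A match of letters is a description and no measure of binding.

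Ghrl (ENSMUSG00000064177) was concentrated in few cells. The 25 Ghrl-high cells held 26525 of the 27971 Ghrl UMIs of kept cells, 94.8% (94.6 to 95.1), with 1.10% of all UMIs. The cell with most had 9397 Ghrl UMIs, 33.6% of all, and the 5 highest cells together 66.0%. In that cell Ghrl made up 57.4% of its 16377 UMIs. Counts in Ghrl-high cells spread over a wide range, with a lowest value of 61, a median of 274 and 7 cells at 1000 or more. At the threshold, the nearest cells inside had 61, 63 and 70 UMIs and the nearest outside had 49, 37 and 36. Outside the Ghrl-high cells a Ghrl UMI was seen in 838 of 2310 cells.

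Sst (ENSMUSG00000004366) was rarer. The 6 Sst-high cells had 560, 558, 468, 147, 102 and 75 Sst UMIs and held 1910 of 2076, 92.0% (90.8 to 93.1). The nearest cells outside had 20, 8 and 4, so the threshold fell in a wide gap. Sst-high cells were 0.257% (0.0944 to 0.558) of kept cells and Ghrl-high cells 1.07% (0.694 to 1.58).

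**Figure D1:**
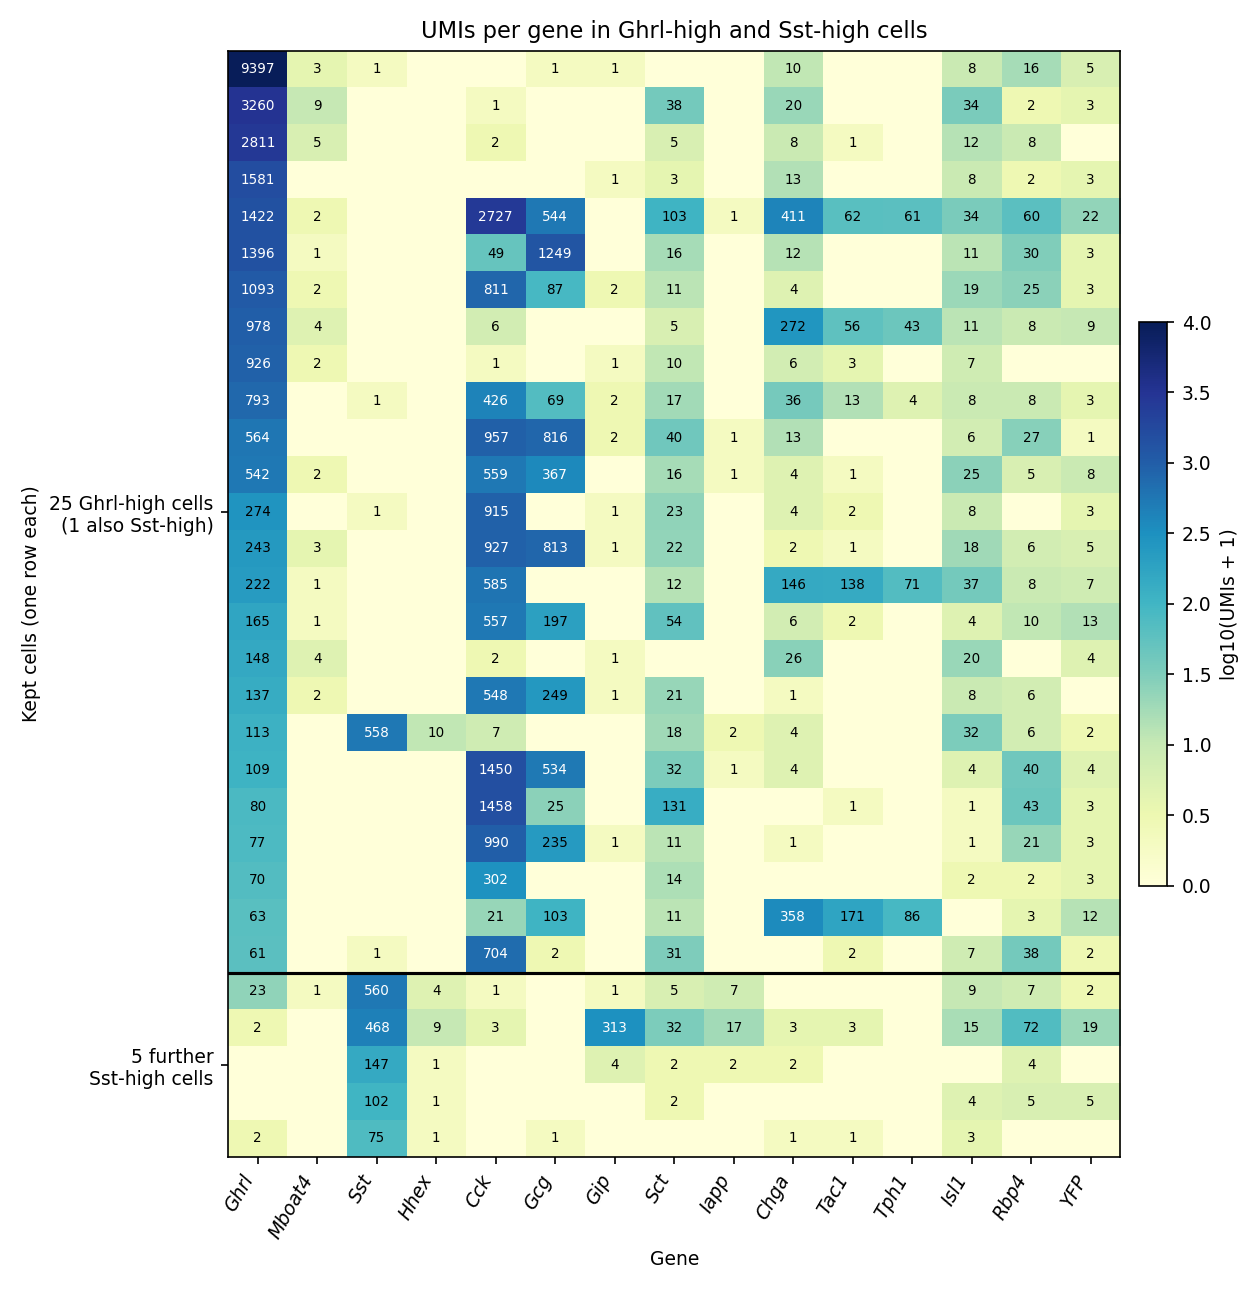
UMIs of each gene (columns) in each kept Ghrl-high cell and, under the line, in the 5 Sst-high cells that are not Ghrl-high; colour is log10(UMIs + 1) and the printed number is the UMI count, blank for 0. Ghrl-high cells split into cells with many Cck or Gcg UMIs and cells with almost none, and Hhex stands beside Sst.

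The partner genes were found at low counts. Mboat4 (ENSMUSG00000071113) had 67 UMIs in 36 kept cells with at most 9 in a cell, and 41 of the 67 lay in Ghrl-high cells, 61.2% (48.5 to 72.9). It was found in 14 of 25 Ghrl-high cells. Summed over cells, Mboat4 stood at 72.9 UMIs per 1000000 (CPM; 52.3 to 98.9) in Ghrl-high cells and 2.21 CPM (1.29 to 3.54) in other enteroendocrine-like cells. The log2 ratio was 2.76 (2.20 to 3.27) with 10 CPM added to both sides. Among 10003 genes with at least 50 UMIs over both groups, 0.9% were at least 2-fold higher in Ghrl-high cells and 2.29% at least 2-fold lower. Mboat4 reached the 50 UMI minimum with 41 UMIs in Ghrl-high cells and 17 in the others, so its place among the higher genes is partly set by the minimum. Sst was also higher, and its 562 UMIs in Ghrl-high cells came to 99.3% from the cell that is both. Hhex did not reach 50 UMIs over both groups.

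In kept cells the share with an Mboat4 UMI was larger at higher Ghrl counts. It was 0.476% (0.191 to 0.977) of 1472 kept cells without Ghrl, 1.45% (0.752 to 2.52) of 827 cells with 1 to 9 Ghrl UMIs and 27.3% (6.02 to 61.0) of 11 cells with 10 to 49. It was 30% (6.67 to 65.2) of 10 cells with 50 to under 200, 62.5% (24.5 to 91.5) of 8 cells with 200 to under 1000 and 85.7% (42.1 to 99.6) of 7 cells with 1000 or more. Median depth over these bins lay between 12217 and 24481 UMIs without following that order. Left-out barcodes gave 0.164% (0.0707 to 0.322) at 0 Ghrl UMIs, 5.84% (2.71 to 10.8) at 10 to 49, 81.8% (48.2 to 97.7) at 200 to under 1000 and 76.2% (52.8 to 91.8) at 1000 or more, the last of these below the one before it with overlapping intervals. Their median depth was 2511, 24968, 9736 and 13361 UMIs in these bins.

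Hhex (ENSMUSG00000024986) had 71 UMIs in 44 kept cells. Sst-high cells held 26 of them, 36.6% (25.5 to 48.9), with 4, 10, 9, 1, 1 and 1 UMIs in the cells in falling order of Sst, so all 6 carried the transcript. Its level was 277 CPM (181 to 405) in Sst-high cells and 1.43 CPM (0.714 to 2.56) in other enteroendocrine-like cells, a log2 ratio of 4.65 (3.92 to 5.28). Hhex also fell short of the 50 UMI minimum in the Sst comparison, in which 4.94% of 9871 genes were at least 2-fold higher in Sst-high cells and 16.8% at least 2-fold lower. The 6 Sst-high cells sum to 93970 UMIs, so that 1 UMI counts as 10.6 CPM there. Without the cell that is also Ghrl-high, the Hhex level was 189 CPM (108 to 306) in Sst-high cells and the ratio 4.12, beside 5.46% of genes higher and 19.2% lower. With all 6 Sst-high cells set against the other 67 cells of the peptide hormone cluster, the ratio was 4.73, beside 2.8% of genes higher and 8.96% lower. Left-out Sst-high barcodes carried Hhex in 11 of 13. Their level was 1184 CPM (899 to 1531).

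**Figure D2:**
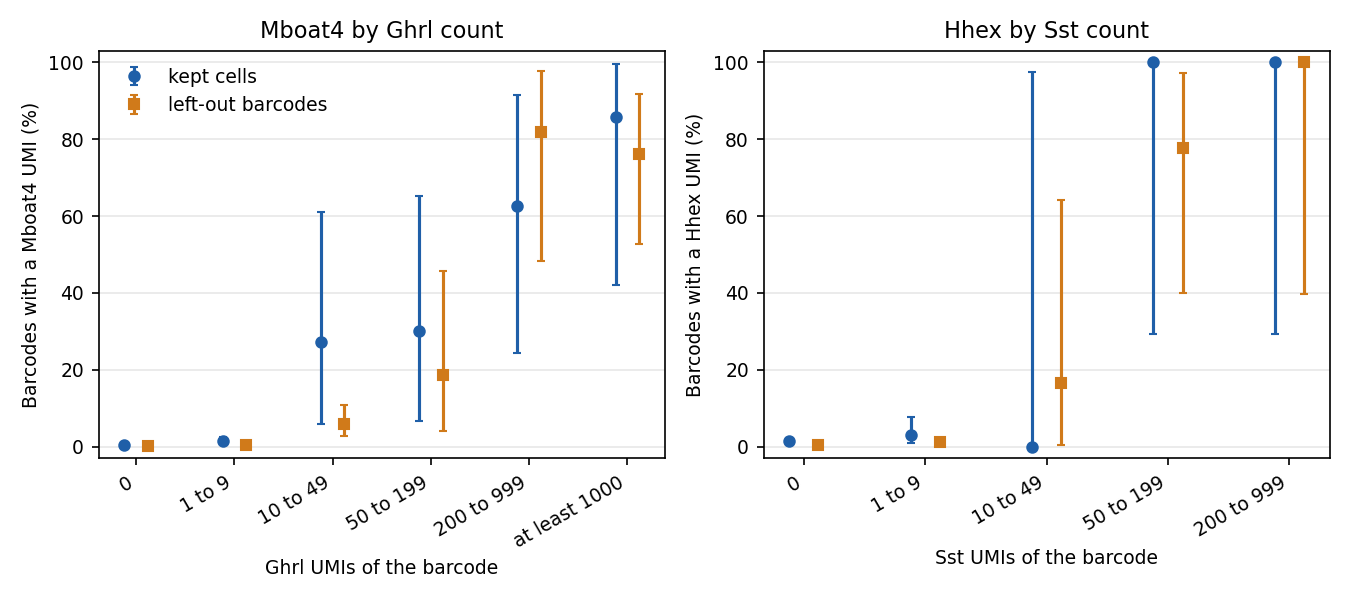
Share of barcodes with at least 1 Mboat4 UMI by their Ghrl count (left) and with at least 1 Hhex UMI by their Sst count (right), for kept cells (circles) and left-out barcodes (squares), with exact 95% intervals. Mboat4 goes up to 85.7% of kept cells at 1000 or more Ghrl UMIs, and Hhex is in all 6 kept cells with at least 50 Sst UMIs.

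Hhex was not limited to the Sst-high cells. B or plasma cell-like cells held 20 Hhex UMIs in 18 of 92 cells, at 62.4 CPM (38.1 to 96.4). That is 28.2% (18.1 to 40.1) of all Hhex UMIs of kept cells, in cells with a median of only 2612 UMIs. Hhex is also known from blood cells, as its full name, hematopoietically expressed homeobox, records. Cycling cells, much deeper, were at 0.340 CPM (0.111 to 0.794).

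Ghrl UMIs were also found outside the enteroendocrine-like class. With each cell thinned to 2000 UMIs, Ghrl was found in 6.45% (5.45 to 7.56) of all cells that are not Ghrl-high, against 36.3% unthinned. The lymphocyte classes were taken as background, and whether they transcribe Ghrl was not tested. Their thinned share was 10.4% (4.59 to 19.4) in B or plasma cell-like cells and 16.7% (5.64 to 34.7) in T cell-like cells. The 71 cells of the peptide hormone cluster that are not Ghrl-high, Sst-high cells included, were at 20.9% (11.9 to 32.6), an interval that overlaps both. Their level of 218 CPM (194 to 245), from 289 UMIs with up to 49 in a cell, stood above 75.1 CPM (34.4 to 143) in T cell-like cells and 56.2 CPM (33.3 to 88.8) in B or plasma cell-like cells. Thinned Sst was found in 0.861% (0.519 to 1.34), Hhex in 0.589% (0.314 to 1.01) and Mboat4 in 0.137% (0.0283 to 0.400) of the other cells. For Ghrl and Sst, shares at or below those of the lymphocyte classes are not read as expression here. For Hhex the B or plasma cell-like cells, at 15.6% (8.32 to 25.6) thinned, give no background, and Mboat4 had 0 UMIs in both lymphocyte classes. Low shares of Hhex and Mboat4 therefore have no such line and are given as counts only. Single cells stood apart from their class: 1 enteroendocrine-like cell outside the peptide hormone cluster had 37 Ghrl UMIs, in a class at 36.4 CPM, and 1 cell of an unnamed cluster had 20 Sst UMIs, in a class at 5.79 CPM. The source of the low counts was not tested.

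**Figure D3:**
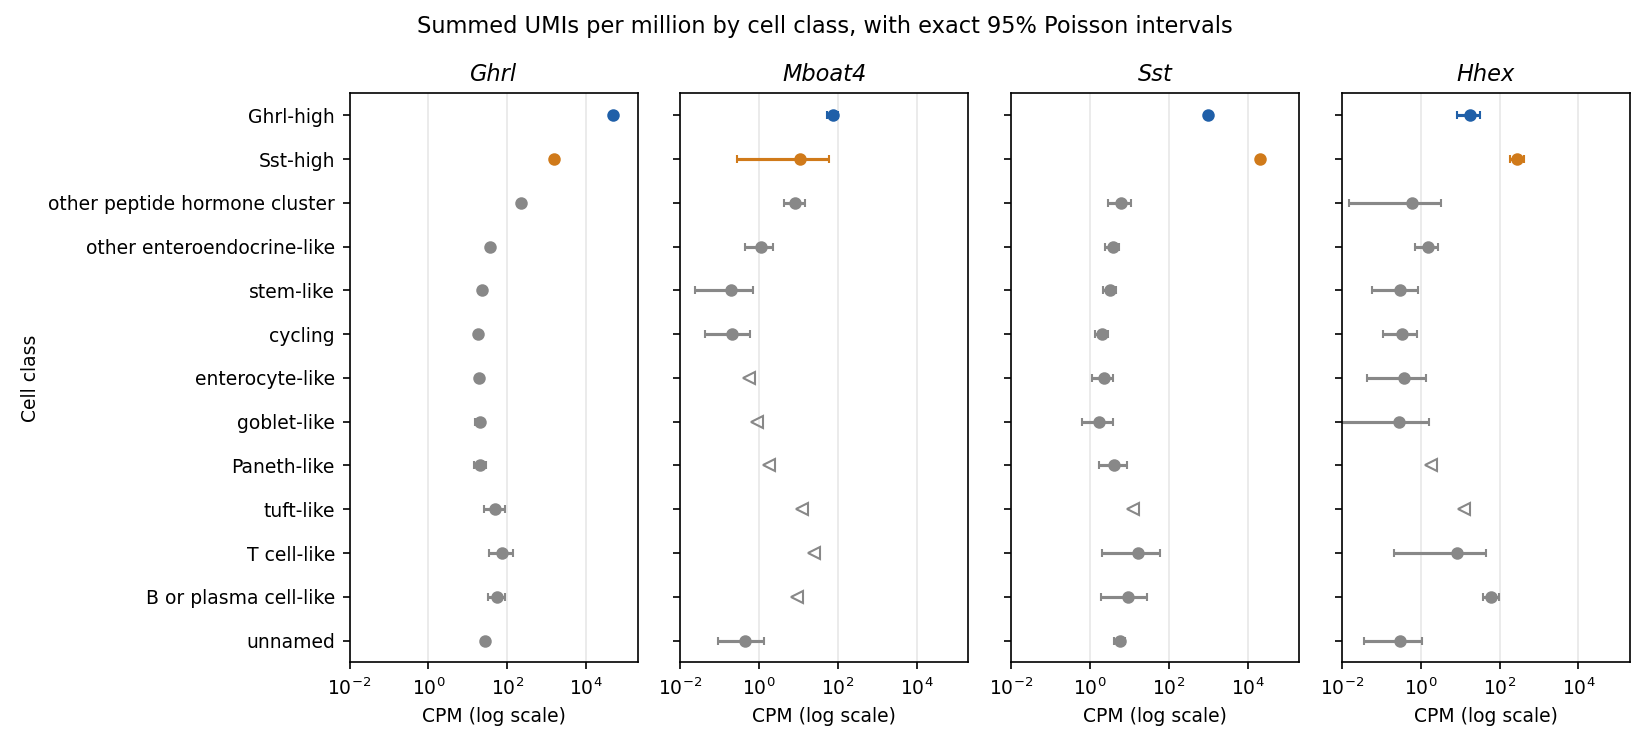
Level of each gene (CPM, log axis) in Ghrl-high cells, Sst-high cells and the remaining cells by class; bars are exact 95% Poisson intervals and open triangles stand at 3 counts for a class with 0 UMIs. Mboat4 is highest in Ghrl-high cells and Hhex in Sst-high cells, with Hhex at 62.4 CPM in B or plasma cell-like cells.

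By hormone content the Ghrl-high cells were of several kinds. At least 50 UMIs of Cck, the hormone cholecystokinin of I cells, were present in 15 of 25, and at least 50 UMIs of Gcg, the proglucagon gene of L cells, in 12. Both were present in 10 cells, Cck alone in 5, Gcg alone in 2 and neither in 8. The 8 cells with neither held 72.4% of the Ghrl UMIs of Ghrl-high cells, with 113 to 9397 each, against 77 to 1422 in the 10 cells with both and 61 to 274 in the 5 with Cck alone. Mboat4 was at 159 CPM (105 to 231) in the cells with neither, against 37.1 CPM (19.8 to 63.5) in the 15 cells with Cck. Cck counts in the 15 cells ran from 302 to 2727, and 2 of the 15 are among the highest doublet scores, whose part was not tested.

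4 Ghrl-high cells lay outside the peptide hormone cluster, 1 in an enterochromaffin-like cluster and 3 in another enteroendocrine-like one. They had 146 to 411 Chga UMIs, 43 to 86 of Tph1, the enzyme of serotonin synthesis, and 56 to 171 of Tac1, the tachykinin precursor. The 21 Ghrl-high cells of the peptide hormone cluster had 0 to 36 Chga UMIs and 0 to 13 of Tac1. These 4 cells carried 1187 of the 1361 Chga UMIs, 427 of the 453 Tac1 UMIs and 261 of the 265 Tph1 UMIs of Ghrl-high cells. The clusters were formed on these genes among others, so this is a description. The Ghrl counts of these 4 cells were 1422, 978, 222 and 63, and 1 of the 4 is among the highest doublet scores. They are also the 4 Ghrl-high cells with Xist at 3 UMIs or more together with a Y-linked UMI. In the same order they held 47685, 34081, 23697 and 28944 UMIs, against a median of 16079 in Ghrl-high cells. The same sex-linked pattern was seen in 53 of the 375 further enteroendocrine-like cells outside the peptide hormone cluster. The part of doublets in these 4 cells was not tested.

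Of a list of 17 peptide and amine hormone genes, 12 were measured in the Ghrl-high comparison (at least 50 UMIs). Gcg, Cck and Pyy were at least 2-fold higher in Ghrl-high cells and Gip, Afp, Tac1, Chgb, Chga and Tph1 at least 2-fold lower, beside 0.9% and 2.29% of all genes measured. The list had a median log2 ratio of -1.20, beside -0.05 over all genes measured. Gcg stood at 9412 CPM in Ghrl-high cells and 851 CPM in other enteroendocrine-like cells (log2 ratio 3.45), and Cck at 24914 CPM against 3872 CPM (2.68). Gip, the incretin of K cells, was at 24.9 CPM (13.6 to 41.8) in Ghrl-high cells and 6219 CPM in other enteroendocrine-like cells, a log2 ratio of -7.48, and no Ghrl-high cell had more than 2 Gip UMIs. Pyy, the L cell peptide, was found in 6 of the 25 cells. Against the other 67 cells of the peptide hormone cluster, 10 of the 17 hormone genes were measured. There Tph1, Chga, Tac1, Afp and Chgb were at least 2-fold higher in Ghrl-high cells and Gip lower. With only the 21 Ghrl-high cells of that cluster, 8 were measured, and Chga and Gcg were higher and Gip lower.

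Of 16 endocrine transcription factors, all measured, 3 were at least 2-fold higher in Ghrl-high cells and 4 lower, with a median log2 ratio of -0.31. The ETS factor Etv1 was at 262 CPM in Ghrl-high cells and 24.4 CPM in other enteroendocrine-like cells (2.98) and was found in 22 of 25 cells. The LIM homeobox gene Isl1 was at 578 CPM in Ghrl-high cells against 94.0 CPM (2.50). Neurog3, the gene that commits cells to the endocrine lineage, was lower (-1.67), as were Lmx1a (-1.50), Rfx6 (-1.12) and Mnx1 (-1.01). Enterochromaffin-like markers were lower in this comparison too: 6 of 8 were at least 2-fold lower. Their summed level was 3627 CPM in Ghrl-high cells and 12235 CPM in other enteroendocrine-like cells. Against the other 67 cells of the peptide hormone cluster, 6 of 7 measured were instead at least 2-fold higher. The summed level in those 67 cells was 457 CPM. With only the 21 Ghrl-high cells of that cluster, 0 of 2 measured passed 2-fold, at 355 CPM against 457 CPM. Stem-like markers summed to 2268 CPM in Ghrl-high cells and 3081 CPM in other enteroendocrine-like cells, with 0 of 10 past 2-fold, and cycling markers to 1185 CPM against 1412 CPM.

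Of 10 genes of prohormone processing and acyl supply, 9 were measured, and Acsl1, a long-chain acyl-CoA synthetase, was the 1 gene past 2-fold, at 322 CPM in Ghrl-high cells and 31.3 CPM in other enteroendocrine-like cells (3.01). The proghrelin convertase Pcsk1 had a log2 ratio of -0.64 and carboxypeptidase Cpe one of 0.87, and Pcsk2 had 0 UMIs in Ghrl-high cells. Of 13 receptors and nutrient sensors, 5 were measured. The long-chain fatty acid receptor Ffar1 was at 83.6 CPM in Ghrl-high cells and 16.2 CPM in other enteroendocrine-like cells (1.83), and the lipid amide receptor Gpr119 at 35.6 CPM against 4.68 CPM (1.63). The ghrelin receptor gene Ghsr had 0 UMIs in both groups. Of 5 somatostatin receptor genes, 2 were measured, and Sstr1 was lower in Ghrl-high cells, at 16.0 CPM against 53.2 CPM (-1.28). These contrasts were partly different in the comparison with the other 67 cells of the peptide hormone cluster. There Acsl1 and Pcsk1 of 8 processing genes measured were at least 2-fold higher, and of 5 receptors and nutrient sensors only Ffar2. Of the somatostatin receptor genes 0 were measured there. With only the 21 Ghrl-high cells of that cluster, Acsl1 and Ffar2 alone passed 2-fold.

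Among genes found in at least 50% of Ghrl-high cells, the highest ratios after Ghrl included those of Gcg, Maged2 (3.20), Acsl1, Etv1, the granule gene Scg2 (2.93), Cck, Isl1 and the calcium sensor Scgn (2.46). Scg2 was found in 20 of 25 Ghrl-high cells and in 15.2% of other enteroendocrine-like cells. The lowest, after Gip, were Fabp5 (-2.97), Afp (-2.91), the antimicrobial lectin Reg3g (-2.19) and C1qa, which had 0 UMIs in Ghrl-high cells and 32.0 CPM in other enteroendocrine-like cells. Set against the other 67 cells of the peptide hormone cluster, Mboat4 had a log2 ratio of 2.21, at 72.9 CPM in Ghrl-high cells and 7.97 CPM (3.82 to 14.7) in those cells, while Chga was higher in Ghrl-high cells (4.41). In that comparison 1.59% of 5267 genes were at least 2-fold higher and 1.04% lower. With the 21 Ghrl-high cells of that cluster alone the Mboat4 ratio was 2.32 and the Chga ratio 1.87, beside 0.752% of 4921 genes higher and 1.32% lower; Mboat4, with 34 UMIs in the 21 cells, is under the 50 UMI minimum there and not one of the 4921.

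The cell with both hormones had 113 Ghrl and 558 Sst UMIs among 9127, and it was not among the highest doublet scores. It carried all 10 Hhex UMIs of Ghrl-high cells, no Mboat4 UMI and 32 Isl1 UMIs. A further Sst-high cell had 560 Sst and 23 Ghrl UMIs, under the threshold, and another had 468 Sst and 313 Gip UMIs; both of these are among the highest doublet scores. No left-out barcode had at least 50 UMIs of both genes.

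Sst-high cells had little of the hormones that Ghrl-high cells share. Cck was at 117 CPM (58.4 to 209) in Sst-high cells and 3872 CPM in other enteroendocrine-like cells, and Chga at 106 CPM against 7251 CPM, a log2 ratio of -5.96. Of the 12 hormone genes measured, 9 were at least 2-fold lower and Iapp was at least 2-fold higher, beside 16.8% and 4.94% of all genes measured. Tph1 and Afp had 0 UMIs in Sst-high cells. Chga was found in 4 of 6 Sst-high cells with at most 4 UMIs. In the other 67 cells of the peptide hormone cluster Chga was at 104 CPM, so its low level was shared with them. Compared with those 67 cells, 7 hormone genes were measured. Gcg, Cck, Pyy, Gip and Sct were at least 2-fold lower in Sst-high cells, beside 8.96% of all genes measured.

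Of 8 delta cell genes, chosen from pancreatic delta cells, 5 were measured against other enteroendocrine-like cells. Iapp, Isl1 and Rbp4 were at least 2-fold higher while Rgs2 was lower. In the comparison with the other 67 cells of the peptide hormone cluster, 3 of the list were measured and 0 passed 2-fold. The list summed to 2043 CPM in Sst-high cells and 1851 CPM in those 67 cells. The amylin gene Iapp was at 298 CPM in Sst-high cells and 6.76 CPM in other enteroendocrine-like cells (4.20), in 4 of 6 cells. Of its 28 UMIs, 17 and 7 were in 2 cells that are both among the highest doublet scores. Isl1 was at 670 CPM against 94.0 CPM (2.71), in 5 of 6 cells. Retinol-binding Rbp4 was at 1000.3 CPM against 274 CPM (1.83), with 76.6% of its UMIs in the cell that also had Gip. Of 16 transcription factors, 7 were at least 2-fold lower, beside 16.8% of all genes, among them Neurod1 (-2.08) and Nkx2-2 (-1.73). Of 9 processing genes measured, Pcsk1 and Pam were at least 2-fold lower, a share near that of all genes, and of 2 somatostatin receptor genes measured none passed 2-fold. Of 4 receptors and nutrient sensors measured, Ffar2 and Ffar1 were at least 2-fold lower, Ffar1 with 0 UMIs in Sst-high cells. Pdx1 stood at 53.2 CPM against 24.4 CPM (0.88), with intervals that overlap.

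Crypt genes also stood high in Sst-high cells. Among genes with at least 50 UMIs in Sst-high cells, found in at least 50% of them and with at most 50% of the UMIs in 1 cell, those with the largest ratios after Sst were Cd24a (1.77), the tubulin Tubb5 (1.67), Ifitm3 (1.53), the stem cell gene Olfm4 (1.52), Stmn1 (1.43), Tubb4b (1.31), H2afv (1.27), Cps1 (1.06) and Sox4 (1.05). Of 11 cycling genes 7 were at least 2-fold higher, with 3831 CPM summed in Sst-high cells and 1412 CPM in other enteroendocrine-like cells, and of 10 stem-like genes 4 were, with 7247 CPM against 3081 CPM, beside 4.94% of all genes. The cycling list had 64, 4, 197, 1, 93 and 1 UMIs in the 6 cells in falling order of Sst, so 3 cells carried nearly all. Those 3 cells, 1 of them in a cycling cluster, are among the highest doublet scores. In the 2 cells outside those scores, 0 of 11 cycling genes and 0 of 10 stem-like genes were at least 2-fold higher, and 9 and 8 were at least 2-fold lower, with 442 CPM and 619 CPM summed, while 2 of 5 delta cell genes were higher and 2 lower. Over all 9850 genes measured in these 2 cells against the same other cells, 18.4% were higher and 53.2% lower. The part of doublets in the crypt genes was not tested beyond this.

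Over the 471 enteroendocrine-like cells, the genes most like Ghrl among 12433 were Etv1 (Pearson r 0.64 of log-normalised values), Plb1 (0.58), Kcnk16 (0.58), Mboat4 (0.55) and Krt20 (0.55). Those most like Mboat4 were Zcchc12 (0.67), Avpr1b (0.63), Ghrl (0.55), Sh3bgr (0.54) and Maged2 (0.52). Hhex stood first for Sst with 0.85, followed by Acot7 (0.50) and Epb41l4a (0.49). Ghrl and Sst had an r of 0.13. All cells share 1 library and a few high cells carry these values, so they are descriptions.

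Most of these cells carried the same pair of tags, and YFP was counted beside the tags. Tags 1 and 2 led by at least 3 times in 21 of 25 Ghrl-high cells, 84% (63.9 to 95.5), and in 6 of 6 Sst-high cells, and tags 3 and 4 led in 0 of either. With a cutoff at the low point between both modes of the tag ratio instead, 5 of 25 Ghrl-high cells, 20% (6.83 to 40.7), fell to tags 3 and 4. At 3 times, tags 1 and 2 led in 79.9% (75.8 to 83.5) of other enteroendocrine-like cells and 32.6% (30.5 to 34.8) of non-endocrine cells. YFP reached 3 UMIs in 19 of 25 Ghrl-high cells, 76% (54.9 to 90.6), in 2 of 6 Sst-high cells, in 41.2% (36.5 to 45.9) of other enteroendocrine-like cells and in 7.84% (6.66 to 9.15) of non-endocrine cells. Median depth was 16079 UMIs in Ghrl-high cells, 11601 in Sst-high cells and 20524 in non-endocrine cells. After thinning, a YFP UMI was found in 40% (21.1 to 61.3) of Ghrl-high cells and 30.8% (26.5 to 35.5) of other enteroendocrine-like cells, intervals that overlap. The driver gene Chga was at 2421 CPM in Ghrl-high cells, 106 CPM in Sst-high cells and 104 CPM in the other cells of the peptide hormone cluster, against 8644 CPM in the 375 further enteroendocrine-like cells outside that cluster.

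Most barcodes with the hormones were not among the kept cells. Over the whole matrix 73 barcodes were Ghrl-high and 25 of them were kept, 34.2% (23.5 to 46.3); for Sst it was 6 of 19, 31.6% (12.6 to 56.6). Of all barcodes of the matrix, most of them past a limit, 20.8% were kept. Within the limits of the kept cells, 44.6% (31.3 to 58.5) of 56 Ghrl-high barcodes were kept and 60% (26.2 to 87.8) of 10 Sst-high barcodes. The same share was 86.6% (82.7 to 89.9) for barcodes with at least 50 UMIs of Chga, 87.7% (82.0 to 92.1) for Tac1, 69.4% (57.5 to 79.8) for Cck and 71.4% (69.8 to 72.9) for all barcodes. Ghrl-high barcodes with neither Cck nor Gcg were kept in 24.2% (11.1 to 42.3) of 33 and those with either in 73.9% (51.6 to 89.8) of 23. The 31 left-out Ghrl-high barcodes within the limits had a median of 83 hashtag counts, 0 to 133, against 217 in kept Ghrl-high cells, 99 to 1714. Over all 937 left-out barcodes within the limits the median was 63, 0 to 139, against 224 in all kept cells. The part of hashtag staining in the selection was not tested.

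**Figure D4:**
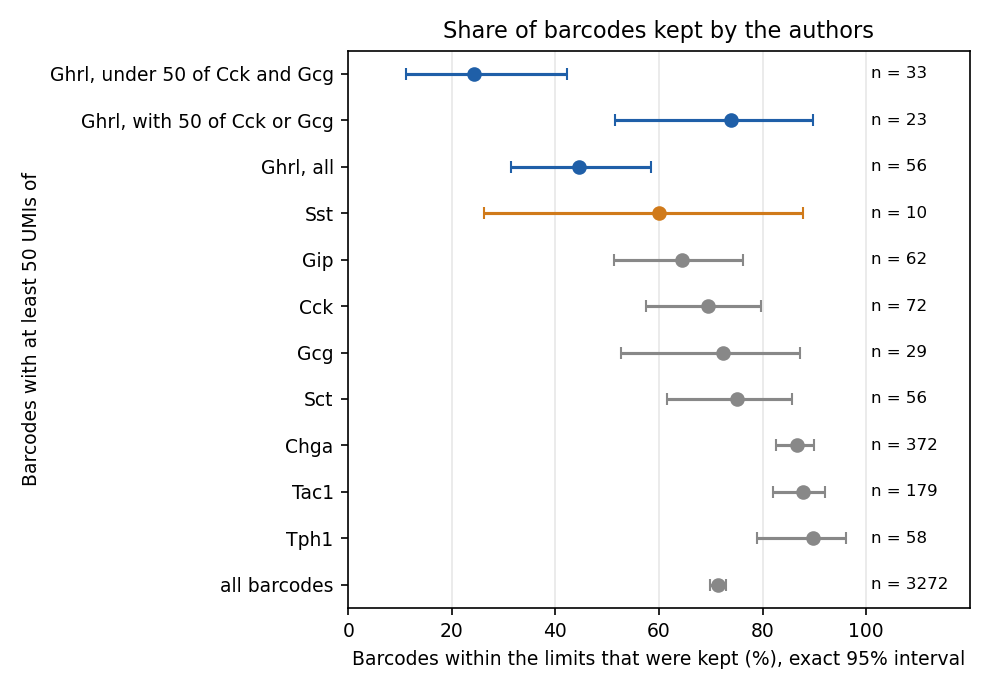
Share of barcodes within the limits of the kept cells that the authors kept, for barcodes with at least 50 UMIs of the named gene, with exact 95% intervals and the number of barcodes at the right. Ghrl-high barcodes without 50 UMIs of Cck or Gcg lie at 24.2%, all barcodes at 71.4%.

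The left-out Ghrl-high barcodes held more of the kind with little Cck and Gcg. Of 48, 36 had under 50 UMIs of both Cck and Gcg, and of the 31 within the limits 25 did, against 8 of 25 kept cells. Those 8 were not free of other hormones: 1 is the cell with 558 Sst UMIs, and 1 had 56 Tac1 and 43 Tph1 UMIs. In the 31 barcodes Mboat4 was at 321 CPM (261 to 390) and found in 23, against 72.9 CPM in the kept cells. Isl1 was at 1859 CPM (1710 to 2018), Etv1 at 444 CPM (373 to 525) and Acsl1 at 978 CPM (871 to 1095), all above the levels in kept Ghrl-high cells. Pcsk1 was at 615 CPM (531 to 709) against 379 CPM in kept cells. Tph1, Afp and Hhex had 0 UMIs there. Neurog3 was at 143 CPM (104 to 191) in 8 of these barcodes, against 12.5 CPM in kept Ghrl-high cells. Adrb1, the receptor through which adrenaline releases ghrelin in mice, had 3 UMIs in 3 of these barcodes and 0 in kept Ghrl-high cells.

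**Figure D5:**
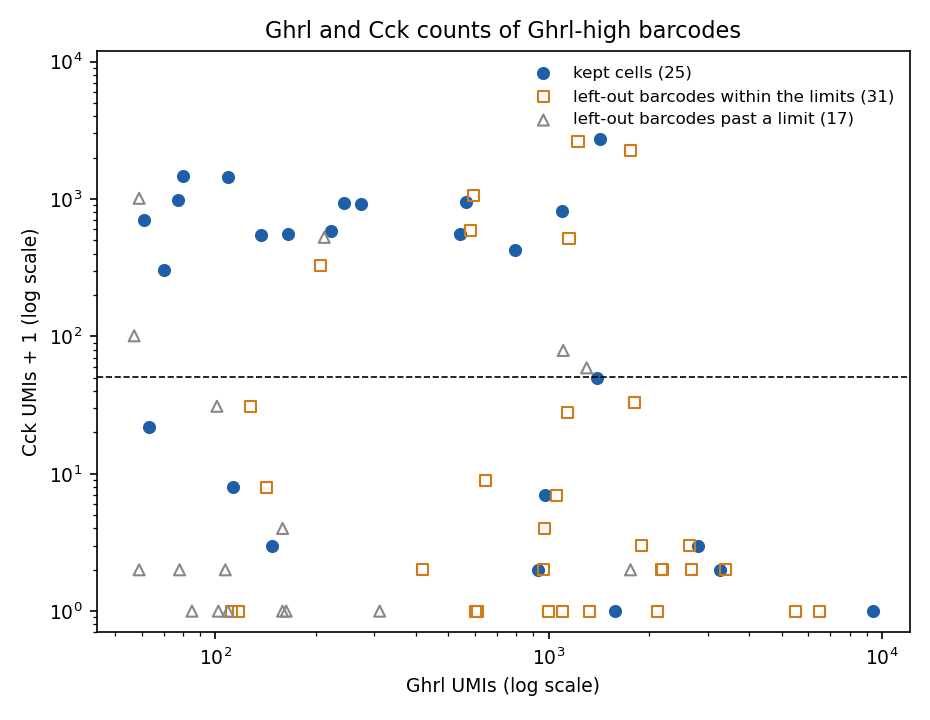
Ghrl UMIs (log axis) and Cck UMIs plus 1 (log axis) of the 73 Ghrl-high barcodes, as kept cells (25), left-out barcodes within the limits (31) and left-out barcodes past a limit (17); the dashed line is 50 Cck UMIs. The highest Ghrl counts lie among barcodes with hardly any Cck, and 25 of the 31 left-out barcodes within the limits lie under the line.

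The left-out Sst-high barcodes numbered 13, and 4 of them lay within the limits. Their Sst counts ran from 53 to 884 and they held 611 to 12682 UMIs. Iapp, with 58 UMIs like Hhex, was at 1184 CPM (899 to 1531), in 9 of 13, and Isl1 at 1286 CPM (988 to 1646), also in 9, against 298 CPM and 670 CPM in kept Sst-high cells. 1 of the 13 had 269 Gip UMIs, beside 57 of Sst and 17 of Hhex, so that a barcode with Sst, Hhex and Gip was met both among kept and left-out barcodes.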

How the data were processed

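The deposited matrix and the kept-cell table hold raw UMI counts, and the hashtag table holds raw hashtag counts; per the file headers the matrix was written by software version 3.1.0. The submitters' processing notes name Cell Ranger and Seurat and give no version. The authors' normalised table holds natural log values, ln(1 + 10000 x UMIs / cell total), as checked against the counts, and entered no result. How the authors chose 2335 of 11248 barcodes is unstated in the labels and headers. The labels name the human build GRCh38 while the gene identifiers are mouse, so no coordinates were taken from the files.

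Counts were summed over cells and given as CPM, per 1000000 UMIs. Ratios are log2 with 10 CPM added, and a gene counts as measured with at least 50 UMIs over both groups and as called at 2-fold. Sums carry exact Poisson and shares exact Clopper-Pearson 95% intervals. Shares with a UMI were taken after thinning to 2000 UMIs. Cells were clustered from 2000 variable genes, 30 principal components and 15 neighbours by Leiden at resolution 1 and named by marker lists (scanpy 1.11.5, leidenalg 0.10.2, numpy 2.4.6, scipy 1.17.1, pandas 2.3.3, matplotlib 3.10.9, Python 3.11.15). The procedure was tested on simulated data. With 1 library, no p-value was computed.

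The 4 genes, the 50 UMI rule and all gene lists were chosen with earlier results of these data known. Genes named are the 4 members, members of the lists, and for each comparison the genes with the 10 highest ratios among genes with at least 50 UMIs in the high cells, found in at least 50% of them, with at most 50% of the UMIs in 1 cell, and the 5 lowest found in at least 25% of other enteroendocrine-like cells. Mitochondrial, ribosomal protein, Xist, Y-linked and unnamed genes were left out of that ranking, and 1 gene that the rule names is not reported here. Alternatives were other thresholds, pseudocounts, minimums, clusterings, tag rules, the doublet scores and the left-out barcodes.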

Additional observations from a re-analysis of the deposited data

Results flagged for a closer look

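Hormone counts appeared in barcodes outside the kept cells. There were 48 left-out barcodes with at least 50 Ghrl UMIs, and 31 of them lay within the UMI, gene and mitochondrial limits of the kept cells. Likewise 13 left-out barcodes had at least 50 Sst UMIs, and 4 of them lay within those limits. They entered no comparison with other cells in the values given first, and their levels were given beside those of the kept cells.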

How the results depend on the processing

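Each of 23 results was recomputed, giving 112 alternative values, of which 66 stayed close to the value given first, 43 moved and 3 changed sign. Left-out barcodes, the cell with both hormones and the peptide hormone cluster alone were alternatives chosen after seeing the data. The Ghrl share was 95.6% at 20 UMIs, 93.6% at 100, 95.4% at 1000 CPM, 87.0% over all barcodes and 99.2% in left-out barcodes within the limits. The Sst share was 88.4% at 100 UMIs, 82.7% without the highest doublet scores, 78.5% over all barcodes and 97.4% in left-out barcodes within the limits. The Mboat4 ratio was 4.53 with 1 CPM added, 1.24 with 50 CPM and 4.76 in left-out barcodes within the limits. The Hhex ratio of Sst-high cells was 3.79 at 20 UMIs, 6.84 with 1 CPM added, 2.67 with 50 CPM, 6.36 without the highest doublet scores, which leaves 2 cells, and 6.68 in left-out barcodes within the limits. The Hhex ratio of Ghrl-high cells, 1.28, was 2.95 with 1 CPM added, 0.40 with 50 CPM and 2.24 as a mean over cells, and it reversed to -0.19 without the cell with most Hhex, which is the cell with both hormones, and in left-out barcodes within the limits: 1 cell held all of its UMIs.

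Counts of genes past 2-fold also moved. For Ghrl-high cells 319 became 951 with 1 CPM added, 77 with 50 CPM, 622 as a mean over cells and 484 without the highest doublet scores. For Sst-high cells 2146 became 3532, 263, 3386 and 6612 under the same changes and 1023 with a minimum of 200 UMIs; the cause was not tested, and the value without the doublet scores rests on 2 cells. Thinning sets detection: outside the high cells Ghrl was found in 11.2% at 5000 UMIs and 36.3% unthinned, Sst in 1.69% and 5.58%, Hhex in 0.256% and 1.63%, and Mboat4 in 0.952% unthinned. At least 10 YFP UMIs were in 12% of Ghrl-high cells, and with 20 Ghrl UMIs 2 Sst-high cells counted as carrying Ghrl. No paired analysis was possible because there is 1 gene expression library. The few Sst-high cells and low Mboat4 and Hhex counts limit what can be read.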
